A study of Mus musculus with 7 samples.

Results

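The nuclear genes that set how much mitochondrial DNA (mtDNA) a cell keeps and transcribes were examined in mouse tumors with and without nuclear myosin 1 (NM1), an isoform of the motor protein gene Myo1c. They comprise 10 genes, chosen by their GENCODE M21 symbol. These are the coactivators Ppargc1a and Ppargc1b and the nuclear transcription factors Nrf1, Gabpa and Esrra. The others are the mtDNA transcription factors Tfam and Tfb2m, the ribosomal RNA methylase Tfb1m, the mitochondrial RNA polymerase Polrmt and the mtDNA polymerase Polg. All 10 were found once among the 46603 genes of the count files, and all 10 were among the 16887 genes that passed the filter on low counts and were tested.

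The 7 libraries held RNA of tumor pieces from Balb/c nude mice, all females aged 16 weeks, collected up to 30 days after fibroblasts were injected. The labels and methods place the injection under the skin of the right flank, whereas the study also writes of the mammary pads, so the site, and with it the host tissue a piece could hold, is not settled. KO pieces (01 to 03) came from NM1 KO mouse embryonic fibroblasts, a CRISPR/Cas9 derivative of the ATCC CRL-2752 line. KO+NM1 pieces (01 to 04) came from the same knock-out background, so they carry the deletion too, with NM1 fused to HA and V5 tags put back by lentivirus and kept by Neomycin selection of single clones. The labels describe a tumor of each kind cut into 4 pieces, whereas the methods write of tumors, so the spread between replicates and every p below measure differences between pieces and may hold none between mice. In bulk tissue, fewer cells of a type and less RNA per cell cannot be told apart.

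The 7 libraries held 24088309 to 28326568 counts. Levels are given as CPM (counts scaled to a common library total after TMM scaling) and fold changes are KO against KO+NM1 on the log2 scale. Myo1c, the targeted gene, stood at 289 to 313 CPM in the KO and 382 to 438 CPM in the KO+NM1 pieces. Its log2 fold change was -0.43 (SE 0.13, edgeR adjusted p = 0.031). Counts per gene cannot separate NM1 from the other products of Myo1c or from the lentiviral copy, so this checks the labels only in direction. KO+NM1 piece 01 stood apart from the rest of its group, with a correlation of log2 CPM (across genes) to the other 3 of 0.855 to 0.861, where these 3 correlated with each other at 0.977 to 0.986.

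As background, mitochondria are made from proteins of both genomes. PGC-1α (Ppargc1a) and PGC-1β (Ppargc1b) bind no DNA themselves and raise transcription through factors such as NRF1, the GABP complex and the estrogen-related receptor ERRα (Esrra), which act on nuclear genes of respiration and on Tfam. TFAM packages and bends mtDNA, TFB2M opens its promoters for the polymerase POLRMT, TFB1M methylates the small mitochondrial ribosomal RNA, and POLG copies the genome. The coactivators are best known from tissues with a high demand for oxidation, such as brown fat and muscle.

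The 10 genes did not move together. Ppargc1a, Ppargc1b and Esrra were lower in the KO pieces, by 7.92-fold, 3.15-fold and 2.39-fold, with adjusted p under 0.05 in the edgeR quasi-likelihood test across all genes. Tfam was 1.58-fold higher in the KO pieces, on the threshold of the same test, and the other 6 genes did not pass it. With limma voom and sample quality weights, 5 of these 6 passed, with adjusted p of 9e-05 for Nrf1, 0.00019 for Polg, 0.00119 for Polrmt, 0.00699 for Gabpa and 0.0307 for Tfb2m. Most genes passed in that voom fit, 7038 higher and 5951 lower of 16887, so a pass there is not particular to these 5. With library size alone in edgeR, Gabpa (0.0127) and Polrmt (0.0391) passed. Of the 10, then, 3 were lower by at least 2-fold and 0 were higher by that much, where over all genes tested 20.3% were lower and 17.1% higher by this rule. By the adjusted p alone, 3 of 10 were lower and 1 of 10 higher, against 24.5% and 25.7% of all genes. The median log2 fold change of the 10 genes was 0.21, beside -0.00 over all genes.

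**Figure D1:**
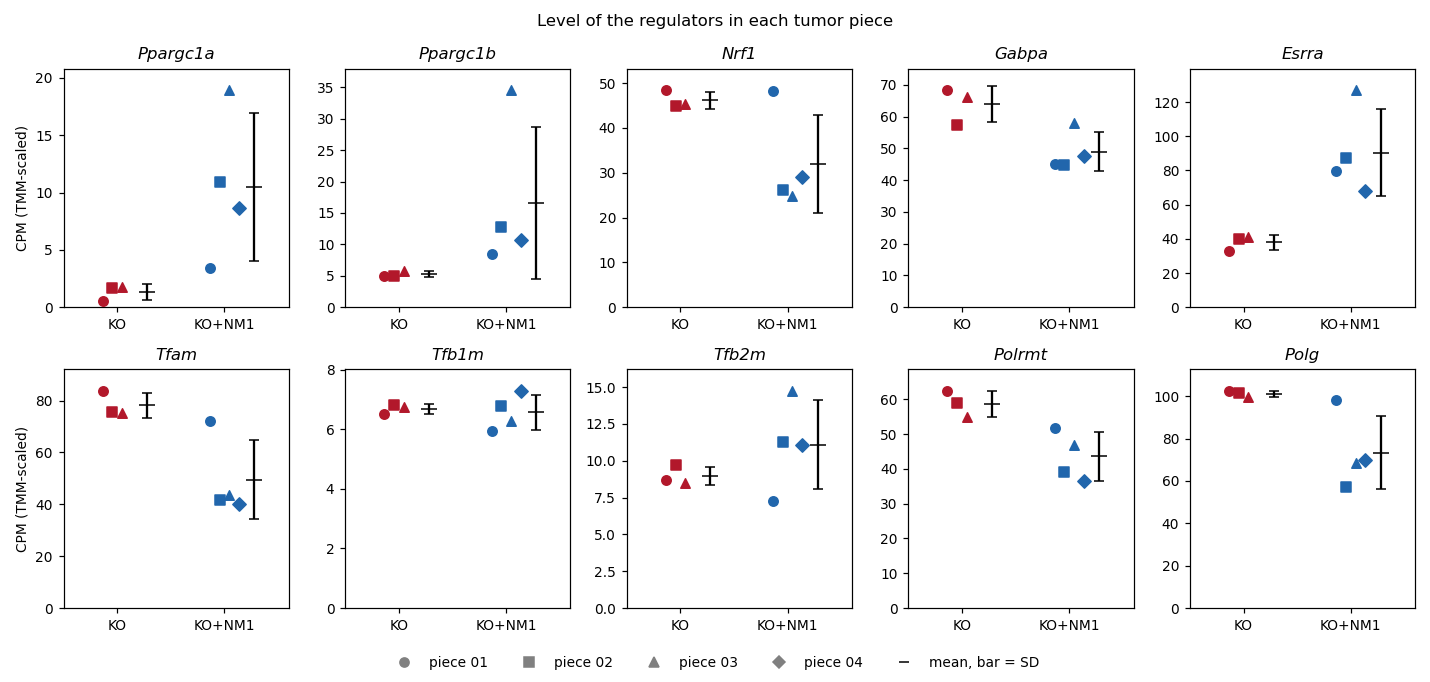
CPM (TMM-scaled, linear axis from 0) of each of the 10 genes in the 3 KO (red) and 4 KO+NM1 (blue) tumor pieces, with marker shape for the piece number and the group mean and SD in black. Ppargc1a, Ppargc1b and Esrra were lower in all 3 KO pieces than in any KO+NM1 piece, and KO+NM1 piece 01 lay near the KO pieces for Tfam, Nrf1 and Polg.

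The start sites of these genes give the sequence context in which the regulators are known to act on each other. The RefSeq promoter table (GRCm38.p6, from 250 bases before to 50 bases after each start) held 9 of the 10 genes in 10 windows, since Nrf1 has 2 starts. They were searched on both strands for the core of a cAMP response element (CRE), TGACGT, bound by CREB, for an ETS site of the kind GABP binds, CCGGAAG, for an NRF1 core, GCGCNTGC, and for an ERR core, AAGGTCA. Of all 32851 windows in the table, these were present in 7.51%, 8.86%, 9.61% and 4.72%. A match is only a run of letters, and no binding was measured here. The promoters of the PGC-1α and ERRα genes, the 2 falling genes with a window, are shown in full up to the first annotated exon, 5′ to 3′ on the transcribed strand, with the CRE core of Ppargc1a and the 2 NRF1 cores of Esrra in capitals.
Ppargc1a, chr5:51567727-51567975, minus strand: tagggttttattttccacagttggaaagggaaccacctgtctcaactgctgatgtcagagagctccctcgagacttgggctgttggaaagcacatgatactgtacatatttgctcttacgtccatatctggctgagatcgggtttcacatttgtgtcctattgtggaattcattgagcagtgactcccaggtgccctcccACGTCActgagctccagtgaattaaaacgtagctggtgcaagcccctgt
Esrra, chr19:6921814-6922058, minus strand: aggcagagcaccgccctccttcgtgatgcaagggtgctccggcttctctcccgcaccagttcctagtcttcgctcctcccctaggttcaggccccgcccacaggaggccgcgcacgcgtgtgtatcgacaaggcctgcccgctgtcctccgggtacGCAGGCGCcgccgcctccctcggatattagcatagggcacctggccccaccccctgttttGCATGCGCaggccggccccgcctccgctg

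The ETS site was found in 4 of the genes, Tfam, Gabpa, Polrmt and Polg, which are shown as 30 bases around it, in capitals, since Gabpa is itself among the 10 genes.
Tfam, chr10:71238073-71238102, minus strand: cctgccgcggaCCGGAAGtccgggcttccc
Gabpa, chr16:84835020-84835049, plus strand: gagggtaagtgCTTCCGGgtccctcagcta
Polrmt, chr10:79746606-79746635, minus strand: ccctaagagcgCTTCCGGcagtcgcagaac
Polg, chr7:79466293-79466322, minus strand: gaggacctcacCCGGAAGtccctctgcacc
The 30 bases shown for Tfam, Gabpa and Polg lie in sequence that GENCODE annotates as exon. An NRF1 core was also present in Tfb2m and, at 3 places of which 2 overlap, in Polrmt, and the ERR core was in none of the 10 windows.

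Ppargc1a, the inducible coactivator of the family, changed most. The 3 KO pieces held 0.533, 1.63 and 1.78 CPM, from 16, 47 and 54 reads, and the 4 KO+NM1 pieces held 3.39, 10.9, 18.9 and 8.67 CPM, from 93 to 383 reads. The groups did not overlap, KO piece 01 was the lowest of all and KO+NM1 piece 03 the highest. The log2 fold change was -2.99 (SE 0.63, 95% interval -4.48 to -1.49, edgeR adjusted p = 0.0112). It kept this direction and passed the threshold in all 16 other fits (other scalings, filters and tests, a block, or 1 library left out), from -3.41 to -2.55.

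Ppargc1b, its paralog with overlapping targets, showed the same order of the KO+NM1 pieces at a higher level. It stood at 5.03, 4.97 and 5.81 CPM in the KO pieces and at 8.43, 12.7, 34.5 and 10.8 CPM in the KO+NM1 pieces. Again no KO piece reached a KO+NM1 piece, and piece 03 was far above its group. The log2 fold change was -1.65 (SE 0.50, edgeR adjusted p = 0.0344), and without KO+NM1 piece 03 it was -1.03, still past the threshold with an adjusted p of 0.0215. Leaving out any 1 KO piece took the adjusted p to between 0.0774 and 0.092, and leaving out KO+NM1 piece 02 took it to 0.0528, with the direction kept.

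The balance of the paralogs was compared within each library, where scaling plays no part. Per kilobase of exon, Ppargc1a was at 0.0641 to 0.199 of the Ppargc1b level in the KO pieces and at 0.244 to 0.518 in the KO+NM1 pieces, so the ranges did not overlap. The mean log2 ratio was -2.91 ± 0.92 (SD, n = 3) against -1.40 ± 0.51 (SD, n = 4), with an exact two-sided permutation p = 0.0286, the smallest that 3 against 4 libraries can give, and 0.114 after adjustment over the 4 ratios tested. Ppargc1a was thus the lower of the pair in every library, and the difference in balance did not pass the adjusted threshold.

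Of the 3 nuclear factors, Esrra alone fell. Its KO levels were 32.6, 40.1 and 40.9 CPM and its KO+NM1 levels 80.0, 87.1, 127 and 67.8 CPM. The highest KO piece was well below the lowest KO+NM1 piece, piece 04. The log2 fold change was -1.26 (SE 0.23, edgeR adjusted p = 0.00471), past the threshold in all 16 other fits, where it lay between -1.44 and -1.04. The NRF1 cores shown above lie in the promoter of this gene.

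Nrf1 and Gabpa did not pass the test. Nrf1, which encodes nuclear respiratory factor 1, was at 48.4, 44.9 and 45.2 CPM in the KO pieces and at 48.2, 26.2, 24.8 and 29.0 CPM in the KO+NM1 pieces. KO+NM1 piece 01 lay inside the KO range while the other 3 were well below it. The log2 difference was 0.53 (SE 0.25, 95% interval -0.06 to 1.12, edgeR adjusted p = 0.118), and without KO+NM1 piece 01 the adjusted p was 0.000683. Without that piece most genes passed by the adjusted p, 5957 higher and 5980 lower of 16617. With all pieces these counts were 4345 and 4132 of 16887.

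Gabpa, the DNA-binding subunit of GABP, was at 68.3, 57.5 and 66.3 CPM in the KO pieces and at 45.1, 44.9, 57.9 and 47.6 CPM in the KO+NM1 pieces. The groups overlapped through KO piece 02 and KO+NM1 piece 03. The log2 difference was 0.39 (SE 0.14, edgeR adjusted p = 0.0564), and it passed without KO+NM1 piece 03 (adjusted p = 0.0314). Of its exon bases 6.98% also lie in exons of Atp5j on the other strand, and the strand option of the counting is not given in the sources used here.

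Tfam, the mtDNA packaging factor, went the other way from the coactivators. The KO pieces held 83.7, 75.7 and 75.3 CPM, and the KO+NM1 pieces 72.3, 41.7, 43.8 and 40.0 CPM. KO+NM1 piece 01 came close to the lowest KO piece without reaching it, and the other 3 formed a tight lower group. The log2 fold change was 0.66 (SE 0.23, 95% interval 0.12 to 1.20, edgeR adjusted p = 0.047). It was positive in all 16 other fits, from 0.50 to 0.86, but passed the threshold in only 4 of them, one of which left out KO+NM1 piece 01 (0.77, adjusted p = 0.000227). Most genes passed in the fit without piece 01, as given for Nrf1. With any other single piece left out the adjusted p was 0.108 to 0.204.

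Polrmt, Tfb1m and Tfb2m did not pass the test. Polrmt, the RNA polymerase, stood at 62.4, 58.8 and 54.8 CPM in the KO pieces and at 51.8, 39.2, 47.0 and 36.5 CPM in the KO+NM1 pieces, with no overlap. The log2 difference was 0.43 (SE 0.16, edgeR adjusted p = 0.0574), and without KO+NM1 piece 01, where most genes passed, the adjusted p was 0.0233. Tfb1m, which modifies ribosomal RNA, ranged from 6.50 to 6.81 CPM in the KO and from 5.95 to 7.28 CPM in the KO+NM1 pieces. Its log2 difference was 0.02 with a 95% interval of -0.44 to 0.49 (edgeR adjusted p = 0.931), and its sign changed with the scaling.

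Tfb2m, the initiation factor, ranged from 8.52 to 9.70 CPM in the KO pieces and was at 7.29, 11.3, 14.7 and 11.1 CPM in the KO+NM1 pieces. Piece 01 was below the KO range and the other 3 KO+NM1 pieces above it. The log2 difference was -0.31 with a 95% interval of -0.93 to 0.32 (edgeR adjusted p = 0.371). Without piece 01, where most genes passed, it was -0.59 with an adjusted p of 0.0212.

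Polg, the catalytic subunit that replicates mtDNA, was at 102, 101 and 99.7 CPM in the KO pieces and at 98.0, 57.2, 68.6 and 69.8 CPM in the KO+NM1 pieces. The KO values were the most uniform of any of the 10 genes relative to their mean, and KO+NM1 piece 01 lay just under them. The log2 difference was 0.46 (SE 0.19, edgeR adjusted p = 0.0815), and without KO+NM1 piece 01, where most genes passed, the adjusted p was 0.00346. Exons of Fanci on the other strand cover 8.57% of its exon bases.

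**Figure D2:**
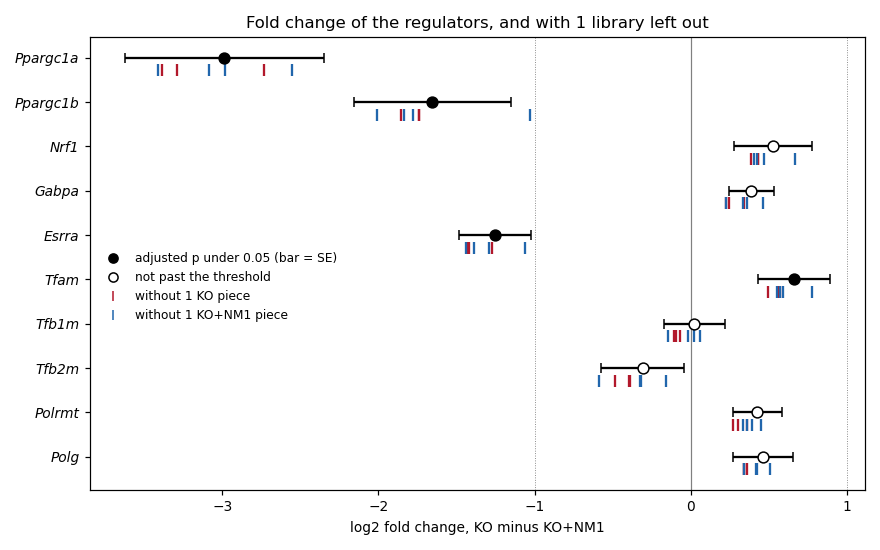
Log2 fold change (KO minus KO+NM1) of the 10 genes with SE, filled where the edgeR adjusted p was under 0.05, with ticks for the value after leaving out each KO (red) or KO+NM1 (blue) piece and dotted lines at a 2-fold change. Ppargc1a, Ppargc1b and Esrra lay beyond the 2-fold line in every such fit, and the ticks of Tfb1m lay on both sides of 0.

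By direction alone, then, 3 genes lay higher in every KO piece than in any KO+NM1 piece (Tfam, Polrmt and Polg) and 3 lower (Ppargc1a, Ppargc1b and Esrra), where 30.5% of all genes were higher and 26.4% lower without overlap. Within libraries, Tfam per kilobase was at 1.36 to 1.45 of Polrmt in the KO and 0.984 to 1.47 in the KO+NM1 pieces (exact permutation p = 0.143). Tfam was at 1.81 to 1.98 of Polg in the KO and 1.39 to 1.79 in the KO+NM1 pieces (exact permutation p = 0.143), and Tfb1m at 0.546 to 0.614 against 0.331 to 0.633 of Tfb2m (exact permutation p = 0.286). None of these 3 balances passed the test, with adjusted p of 0.19, 0.19 and 0.286.

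The order of the levels per kilobase of exon differed between the groups mainly in the places of Esrra and Ppargc1b. In the KO pieces, mean CPM per kilobase ran from Tfam (17.6) through Polrmt (12.5), Gabpa (11.3), Polg (9.41), Esrra (8.63), Nrf1 (4.49), Tfb2m (3.20), Tfb1m (1.85) and Ppargc1b (1.32) to Ppargc1a (0.200). In the KO+NM1 pieces Esrra led (20.6), ahead of Tfam (11.1), Polrmt (9.31), Gabpa (8.60), Polg (6.83), Ppargc1b (4.16), Tfb2m (3.95), Nrf1 (3.11), Tfb1m (1.82) and Ppargc1a (1.59). Neighbours whose ranges overlapped were Polrmt with Gabpa and Polg with Esrra in the KO, and every pair of neighbours except Nrf1 with Tfb1m in the KO+NM1 pieces. Ppargc1a was last in both groups.

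Mitochondrial transcripts themselves were lower in the KO pieces, as the coactivators were, while Tfam was not. The 13 protein-coding genes of the mitochondrial genome were lower in the KO in 13 of 13 cases by at least 2-fold (edgeR adjusted p from 0.00283 to 0.0255), with a median log2 fold change of -2.63. By this rule 20.3% of all genes were lower. Without KO piece 01, 8 of the 13 passed, where 2884 of 17411 genes were lower, beside 3424 of 16887 with all pieces. Their summed level was 15923 to 18839 CPM in the KO pieces and 45358, 111039, 218552 and 74397 CPM in KO+NM1 pieces 01 to 04, and the KO+NM1 pieces stood in the same order for Ppargc1a and Ppargc1b. The listed levels are very unequal between these 13 genes, with mt-Co1 at 6892 to 84620 CPM and mt-Co2 at 6.44 to 96.4 CPM over the 7 pieces.

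Set against the regulators read for read, the mitochondrial sum was 190 to 249 times the Tfam counts in the KO pieces and 627 to 4993 times in the KO+NM1 pieces. For Polrmt the multiples were 255 to 320 and 875 to 4651, and for Esrra 396 to 488 and 567 to 1723. Only for Ppargc1a did the multiples of the groups overlap among the 10 genes, at 9088 to 29856 and 8576 to 13372. The value of 29856, in KO piece 01, rests on 16 Ppargc1a reads. These multiples restate the fold changes of the sum and of each gene, were computed after the levels were seen and carry no test.

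**Figure D3:**
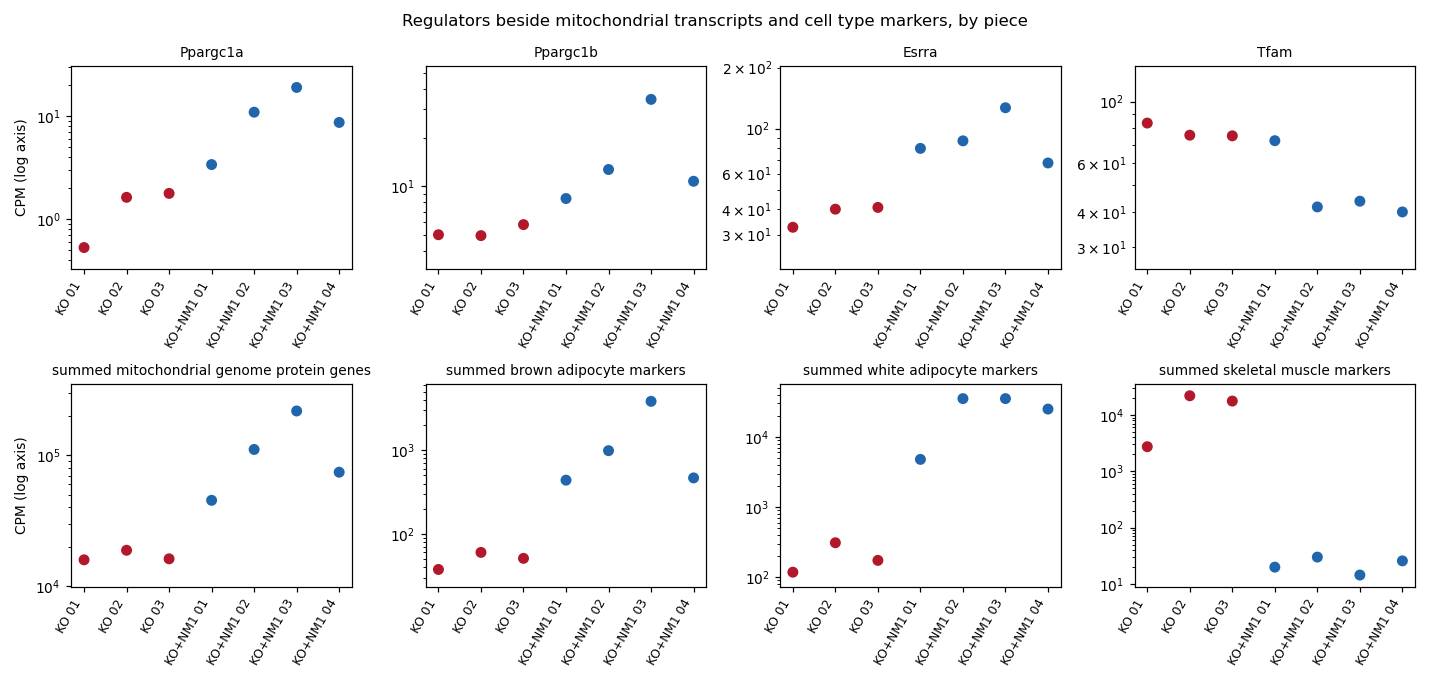
CPM per tumor piece on log axes for Ppargc1a, Ppargc1b, Esrra and Tfam (top) and for the summed mitochondrial genome protein genes, brown adipocyte, white adipocyte and skeletal muscle markers (bottom), KO in red and KO+NM1 in blue. KO+NM1 piece 03 was highest for Ppargc1a, Ppargc1b, Esrra, the mitochondrial sum and the brown adipocyte sum, and muscle markers were present in the KO pieces at 2736 CPM or more.

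Markers of several cell types moved with the same split, and their part in these results was not tested. White adipocyte markers fell in the KO in 10 of 10 cases, with sums of 118 to 310 CPM in the KO and 4770 to 34996 CPM in the KO+NM1 pieces. Brown adipocyte markers fell in 5 of 8 and rose in 1 (Zic1), with sums of 37.6 to 60.1 against 440 to 3851 CPM, the highest in piece 03 as for Ppargc1a. The uncoupling protein Ucp1, which defines brown fat, had at most 4 reads in any KO piece and up to 35935 in a KO+NM1 piece, piece 03. In KO+NM1 pieces 01, 02 and 04 the whole brown sum was only 440, 991 and 468 CPM.

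Skeletal muscle markers rose in the KO in 12 of 12 cases, with sums of 2736, 21922 and 17662 CPM in KO pieces 01 to 03 and 14.4 to 30.0 CPM in the KO+NM1 pieces, where Myh4 and Ckm had at most 2 reads. KO piece 01, with the least muscle signal of its group, also had the least Ppargc1a. It was lowest of its group for the white adipocyte, brown adipocyte and mammary sums too. KO piece 02 held more muscle signal than piece 03, with Ppargc1a at 1.63 against 1.78 CPM. These came from 47 and 54 reads, too close to order the 2 pieces for Ppargc1a. Mammary epithelium markers fell in 5 of the 7 tested (7.63 to 93.9 against 579 to 3451 CPM, with Wap at no more than 2 reads throughout), and endothelial markers fell in 5 of 5 (161 to 180 against 878 to 1159 CPM). Proliferation markers rose in 6 of 6, from 62.4 to 151 CPM in the KO+NM1 pieces to 1607 to 2138 CPM in the KO pieces.

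Fibroblast markers overlapped at 6972 to 12624 and 2279 to 10154 CPM, with 2 of 6 lower in the KO. Both the injected cells and the hosts are mouse, so these markers do not separate injected from host fibroblasts. Macrophage markers rose in 4 of 6 (1691 to 1922 against 465 to 2228 CPM). KO+NM1 piece 01, the piece nearest the KO for Tfam, Nrf1, Polrmt and Polg, held the highest macrophage sum of all pieces. Lyz2 had the most reads of the 6 markers, up to 52027 in a KO+NM1 piece and up to 30960 in a KO piece. The highest counts of Lyz2 and Cd163 were in a KO+NM1 piece, those of Adgre1, Cd68, Csf1r and Mrc1 in a KO piece. KO+NM1 piece 01 also held B and plasma cell markers at 3563 CPM, where the other 6 pieces had 3.08 to 38.4 CPM. Of these 5 markers, 0 passed between the groups in edgeR.

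The genes around the 10 regulators were read from lists that were chosen with earlier results of these data known. Of 36 other genes of mtDNA maintenance and expression, 35 were matched and tested, 5 were higher and 3 lower in the KO by at least 2-fold, and 10 and 6 by the adjusted p alone, with a median log2 fold change of 0.15. By 2-fold, these shares of the 35 lay below those of all genes (17.1% higher, 20.3% lower), and with library size alone 8 were higher and 1 lower. The largest rises were those of Dna2 (4.03, edgeR adjusted p = 0.000613), Fen1 (2.87, 0.00603) and Lig3 (1.86, 0.000782), a nuclease-helicase, a flap endonuclease and a ligase that also serve the nucleus. Without KO+NM1 piece 01 the rise of Fen1 was 3.54. The largest falls were in Dguok (-1.47, edgeR adjusted p = 0.000415) and Tk2 (-1.03, 0.0279), the kinases that salvage deoxynucleosides inside mitochondria, and in Mterf1b (-1.32, 0.0402), a termination factor with a close copy, Mterf1a, with which it can share reads. With any 1 KO piece left out, 5 genes of the list passed in place of 8, and Tk2 and Mterf1b then missed the threshold (adjusted p from 0.0606 to 0.0641 and from 0.0709 to 0.109), as did Mterf1b without KO+NM1 piece 02 (0.079).

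Of 32 other regulators upstream of biogenesis, 5 were higher and 8 lower by at least 2-fold, near the 17.1% and 20.3% of all genes, with a median of 0.08. With library size alone 8 were higher and 8 lower. Pprc1, the third coactivator of the PGC-1 family, rose by 1.78 on the log2 scale (edgeR adjusted p = 0.00414) while its relatives fell. Myc (1.67, edgeR adjusted p = 0.00205), a growth regulator, and Gabpb2 (1.55, 0.0137), a partner subunit of Gabpa, also rose, the last with an adjusted p of 0.0581 and 0.0503 without KO piece 01 or 03. Pparg, the master factor of adipocytes, fell by 5.51 (edgeR adjusted p = 0.00148), Ppara by 5.23 (0.00587) and Esrrg, a receptor related to Esrra, by 3.43 (0.00267). The value for Ppara was -4.17 without KO+NM1 piece 03 and -5.99 without KO piece 02, and that for Esrrg -4.04 without KO piece 03, all past the threshold.

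Of 15 genes known as targets of the coactivators and of ERR, 9 were lower by at least 2-fold and 0 higher, with a median of -1.51. By this rule 20.3% of all genes were lower and 17.1% higher. The largest falls were in Lpl (-5.55, edgeR adjusted p = 0.00163), Fabp3 (-3.95, 0.022) and Pdk4 (-3.51, 0.0123), which take up, carry or favour the use of fatty acids and are also expressed in fat and muscle. Between 4 and 5 of the 15 passed when any 1 KO piece was left out, Fabp3 not among them (adjusted p from 0.0584 to 0.0775), and 13 passed without KO+NM1 piece 01. The count over all genes moved the same way. It was 6306 with all pieces, 5058 to 5631 without 1 KO piece and 7775 without KO+NM1 piece 01. Without KO+NM1 piece 03 the fall of Fabp3 was -2.38 and that of Pdk4 -2.73, both still past the threshold.

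**Figure D4:**
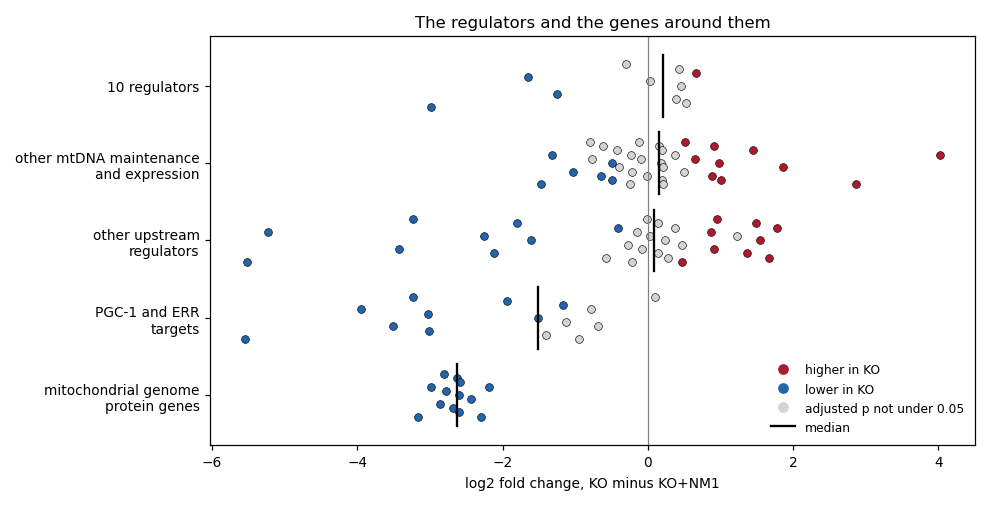
Log2 fold change (KO minus KO+NM1) of each tested gene of the 10 regulators and of 4 lists around them, red or blue where the edgeR adjusted p was under 0.05 and grey otherwise, with the median as a black bar (vertical offsets only separate the points). The 10 regulators and the first 2 lists spread to both sides of 0, whereas all 13 mitochondrial genome genes lay below it.

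The genes whose pattern over the 7 pieces was closest to Tfam, by root mean square difference of centred log2 CPM over 16887 genes, were Ing5 (0.0350), Ppp4r3b, Nop9, Phf20l1 and Cpsf4 (0.0660). Those closest to Ppargc1a lay farther off, with Gm13341 (0.193), Acad11, Mtus1, B930094E09Rik and Fahd2a (0.261). Gm13341 is annotated as an unprocessed pseudogene and averaged 0.404 CPM in the KO and 3.88 CPM in the KO+NM1 pieces.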

How the data were processed

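The deposited values were raw read counts per Ensembl gene, whole numbers without normalization. The authors prepared libraries with the NEBNext Ultra II RNA kit, trimmed the reads with Trimmomatic (version 0.36), aligned the pairs to GRCm38 (mm10) with HISAT2 (version 2.0.4), sorted them with SAMtools (version 0.1.19) and counted them with HTSeq-count. The annotation release and strand option are not given in the sources used here. Symbols came from GENCODE M21 (46005 of 46603 genes), promoter windows from RefSeq.

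Genes kept by filterByExpr (16887) were TMM-scaled and tested with edgeR (version 4.0.16, R version 4.3.3) by the quasi-likelihood test without covariates, with Benjamini-Hochberg adjustment over all genes tested. A change was called at adjusted p under 0.05 and at least 2-fold, the study's thresholds. The biological coefficient of variation was 46.7%. Log2 ratios within libraries used an exact two-sided permutation test over libraries. Levels per kilobase used the union of exons. Read-count limits cover counting error only. The fits were tested on simulated counts.

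The named genes are the 10 regulators, the 3 largest rises and 3 largest falls past the adjusted p in each of 3 lists, and the 5 genes nearest to Tfam and to Ppargc1a. Ucp1, Zic1, Myh4, Ckm, Wap, the 6 macrophage markers, mt-Co1, mt-Co2, Mterf1a and the genes that overlap exons were named after their values were seen. Members and lists were chosen with earlier results of these data known. Other scalings, filters, DESeq2 (version 1.42.0), limma voom (version 3.58.1), a replicate block and leaving out each library were tried.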

Additional observations from a re-analysis of the deposited data

Results flagged for a closer look

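A Dixon test of the 4 KO+NM1 pieces was made on log2 CPM, and its shares hold for that scale only. The gap of the most distant piece to its nearest neighbour was taken as a share of the group's range. It passed the 95% critical value for 4 samples in 5 of the 43 genes examined. Chance gives about 1 in 20 independent groups, but these genes share the same 4 libraries, so the 5 are not set against that rate. Piece 01 stood apart over all genes too. In all 5, KO+NM1 piece 01 was the piece apart. The shares were 0.849 for Tfam, 0.874 for Fen1, 0.908 for Tk2, 0.870 for Gabpb2 and 0.911 for Lpl. Tfam, Fen1 and Gabpb2 were higher in piece 01 than in the other 3 and so nearer the KO pieces, Lpl was lower and also nearer them, and Tk2 was higher and farther from them.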

How the results depend on the processing

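The count of 3 changed regulators lay between 2 and 4 in the alternatives. The replicate block moved the 13 mitochondrial genome genes to 7, and Ppargc1b lost its call there (edgeR adjusted p = 0.0643). The log2 ratio of Ppargc1a to Ppargc1b was -1.38 with this block. Its exact p of 0.25 is the smallest that so few same-numbered pairs can give, so that test could not pass. The numbers share no animal or batch in the labels, and deviations of same-numbered pieces correlated at 0.0807, 0.117 and -0.0354, so they do not pair the pieces. With 1 library left out, the counts changed were 5 to 9 (other mtDNA genes), 4 to 13 (PGC-1 and ERR targets) and 8 to 13 (mitochondrial genome). Over all genes the count ranged from 5058 to 7775 in these fits. The log2 ratio of Ppargc1a to Ppargc1b ranged from -1.79 to -0.98, with too few libraries to pass an exact test. By the adjusted p alone, 16 other mtDNA genes were called. The log2 difference of Tfb1m turned to -0.078 with DESeq2 size factors, -0.14 with upper quartiles, -0.075 with every gene, -0.026 with at least 10 counts in every library, -0.076 with DESeq2 and -0.011 with voom, and lay between -0.15 and 0.058 with 1 library left out. Scaling by upper quartiles moved the median of all genes by -0.16 and library size alone by 0.17, and relative to this shift Tfam was at 0.67 and 0.65. The cause of these changes was not tested.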
